A study of Rattus norvegicus with 40 samples.

Results

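Ccl2, Ccl3, Ccl5, Ccl11 and Cxcl13 are chemokines, small secreted proteins that draw white blood cells along a gradient. They were followed here through the carotid arteries of rats after balloon injury. All probe sets were taken whose platform annotation names exactly 1 of these symbols. This gave 6 probe sets for the 5 genes, of 8740 probe sets without controls and of 4736 genes with a symbol of their own. Ccl2 has 2 probe sets, which were designed from the same transcript record and so are not independent measurements, and each of the other genes has 1.

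The animals were male Wistar-Kyoto rats, 3 months old. In the injured animals a balloon catheter was passed through the left common carotid artery, which damages the inner lining and the muscle layer. Plain pluronic gel, or gel with recombinant tissue-type plasminogen activator (tPA, 20 nmol/kg), was then laid on the outer, adventitial side of that artery. Left and right arteries were taken after 1 or 4 days, which gives 8 groups of 3 arrays: left gel, left tPA, right gel and right tPA on each day. The right artery of these rats was neither injured nor treated per the labels, but it comes from an injured animal. Left arteries of sham-operated rats (4 arrays on day 1, 6 on day 4) and of intact rats (6 arrays) make up the other 3 groups. The labels mention no gel for sham-operated or intact rats, so a difference between gel and sham holds the injury and the gel together. Each array was made from the pooled vessels of 3 rats, so the spread between arrays is that between pools.

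Chemokines act on G protein-coupled receptors of the target cell. Ccl2 acts on Ccr2 and calls monocytes out of the blood. Ccl3 and Ccl5 act on Ccr1 and attract monocytes, macrophages and T cells. Ccl11, also called eotaxin, acts on Ccr3 and attracts eosinophils. Cxcl13 acts on Cxcr5 and guides B cells into lymphoid follicles. In injured arteries, chemokines are known to be made by smooth muscle cells, by fibroblasts of the adventitia and by the macrophages that enter the wall. In RefSeq's GRCr8 assembly, Ccl2, Ccl3, Ccl5 and Ccl11 lie on chromosome 10. There Ccl7 is the next gene after Ccl2 and the gene before Ccl11, and Ccl3 stands between Ccl6 and Ccl4. Cxcl13 lies on chromosome 14.

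The deposited values are intensities on a linear scale, already brought to the same trimmed mean on every array (500.3 to 500.8). Values under the 20th percentile of the table, 23.3, were set to that floor before log2 was taken, so a gene at the floor has only an upper bound. The smooth muscle markers named for the artery wall, such as Acta2, were bright in all 11 groups, with summed intensities of 16247 to 44918 over 7 genes. An index of 753 probe sets that were higher and 611 that were lower in injured gel arteries than in sham arteries was read on each array, with the chemokines left out. It takes its genes from the left gel and sham arrays, whose own values it fixes in direction. The left gel arrays had an index of 1.19 to 1.84 and the sham arrays of -1.2 to -0.6. On 4 of the 12 tPA arrays the index went against the label. It was -0.19 on the array labelled left tPA day 1 replicate 2 and -0.7 on that labelled left tPA day 4 replicate 1. It was 1.24 on the array labelled right tPA day 1 replicate 2 and 1.22 on that labelled right tPA day 4 replicate 1. The other tPA arrays had 1.05 to 1.54 on the left and -0.83 to -0.21 on the right. They form a left and a right array of the same replicate number on each day, and whether left and right were exchanged in these pools was not tested. If they were, these arrays belong to the other side's group. The comparisons that use tPA arrays are therefore given with and without these 4 arrays. The 4 were chosen by an index of injury. For genes that follow injury, leaving them out can by itself widen the differences of left tPA arteries from sham and right arteries. Results without them are thus a description and not independent support. All groups share 1 estimate of the spread, so leaving them out also changes the p-values of comparisons without tPA arrays. Left gel day 1 replicates 1 and 3 were the most alike of 60 pairs within groups. The SD of their log2 differences was 0.45 against a median of 0.837, so results of that group are also given with this pair averaged. Next came sham day 1 replicates 1 and 2 (0.489) and replicates 3 and 4 (0.532). No alternative averaged these, although every comparison with sham arteries of day 1 uses them. On right gel day 1 replicate 3, 6.57% of probe sets were at the floor, against 15.6% to 25.2% on the other arrays. Dim readings on it may therefore not compare with those of other arrays.

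Ccl2 was the brightest of the 6 chemokine probe sets, at the 87.2nd percentile of mean level. On its brighter probe set the intensity was 6394.8, 3894.0 and 6277.7 in the left gel arteries of day 1 and 5410.1, 5248.7 and 5066.2 in those of day 4. Sham arteries had 1178.3, 1546.7, 824.5 and 685.8 on day 1, and ranged from 240.1 to 731.6 with a median of 412.0 on day 4. Every injured gel array was above every sham array of its day.

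Intact arteries ranged from 336.9 to 1460.6 with a median of 747.5. Right gel arteries had 503.8, 706.5 and 1020.9 on day 1 and 947.8, 650.4 and 1343.6 on day 4, within or close to the range of intact arteries. The left tPA arteries had 6069.7, 726.2 and 5049.9 on day 1 and 712.1, 3100.6 and 4610.5 on day 4. The right tPA arteries had 469.4, 4772.9 and 815.6 on day 1 and 4215.3, 802.5 and 984.0 on day 4. In each of these 4 tPA groups 1 array lay far from the other 2, and it was the array whose index went against its label. By mean log2 intensity the order ran from left gel day 1 (12.4) and day 4 (12.36) over left tPA day 1 (11.46) and day 4 (11.08) down to intact (9.47) and sham day 4 (8.62). Each group's range overlapped with that of its neighbour in this order.

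The second Ccl2 probe set was dimmer. It read 1858.5, 1307.4 and 1853.6 in left gel arteries on day 1 and 1492.2, 2777.2 and 1704.7 on day 4, against 283.8, 315.0, 170.8 and 231.5 in sham arteries on day 1. Sham arteries of day 4 ranged from 140.1 to 242.0 with a median of 171.1. The left tPA arteries had 3283.0, 285.4 and 1002.1 on day 1 and 311.8, 571.5 and 944.5 on day 4, so on day 4 all 3 lay under every left gel array.

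Ccl3, the macrophage inflammatory protein 1-alpha that neutrophils and macrophages also release, was at or under the floor on 25 of the 40 arrays. In left gel arteries its intensity was 625.7, 61.6 and 604.3 on day 1 and 177.6, 244.2 and 238.1 on day 4. Sham arteries had 6.4, 54.2, 11.5 and 5.8 on day 1, and all 6 sham arteries of day 4 were under the floor, as were all 6 intact arteries. Left tPA arteries had 955.3, 8.2 and 678.0 on day 1 and 12.9, 15.8 and 180.2 on day 4.

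Of the right arteries, the gel group had 7.4, 81.6 and 51.6 on day 1 and 69.1, 11.1 and 5.2 on day 4. The right tPA arteries had 10.3, 129.4 and 7.9 on day 1 and 792.6, 8.3 and 6.3 on day 4. The highest right artery, at 792.6, was the array labelled right tPA day 4 replicate 1, and the one left tPA array of day 1 under the floor was that whose index went against its label. On day 4, 2 of 3 left tPA arrays were under the floor. On day 1 the left gel group held a pair of high arrays and 1 near the right arteries, and the high pair was the 2 arrays that were most alike.

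Ccl5, which T cells, macrophages and platelets release, was at or under the floor on 26 of 40 arrays and differed from Ccl3 in its timing. All 3 left gel arteries of day 1 were under the floor (12.4, 12.1 and 13.0), and on day 4 they read 682.1, 685.5 and 823.8. Sham arteries were under the floor on all 4 arrays of day 1 and on 5 of 6 of day 4, and all intact arteries were under it. The right gel arteries read 16.1, 13.3 and 27.6 on day 1 and 42.8, 18.3 and 606.1 on day 4.

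In the tPA arteries Ccl5 read 15.1, 20.4 and 40.8 on the left on day 1 and 23.8, 51.8 and 806.7 on the left on day 4. On the right it read 11.7, 41.1 and 20.0 on day 1 and 331.5, 10.3 and 437.5 on day 4. The highest value on any array of day 1 was 41.1. On day 4 Ccl5 was high on every left gel array, on 2 right tPA arrays and on 1 array each of the left tPA and right gel groups. The left gel group of day 4 (mean log2 9.51) was the only one in the order of groups whose range did not overlap with that of the next, right tPA day 4 (7.23).

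Cxcl13 also had its highest group mean in the left gel arteries of day 4, at 1997.0, 1072.7 and 1895.4. On day 1 the same kind of artery had 287.0, 171.6 and 335.5, within the range of sham arteries of that day (180.5, 203.6, 488.6 and 377.5) or just under it. Sham arteries of day 4 were lower, from 15.3 to 129.4 with a median of 67.8, and intact arteries ranged from 57.1 to 255.9 with a median of 118.2. The right gel arteries had 83.0, 219.5 and 373.6 on day 1 and 891.7, 250.2 and 445.6 on day 4, which is above every sham artery of day 4.

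The left tPA arteries had Cxcl13 at 69.0, 1702.2 and 181.3 on day 1 and at 77.2, 214.1 and 1150.2 on day 4. The right tPA arteries had 266.4, 637.9 and 722.9 on day 1 and 178.7, 81.0 and 402.3 on day 4. Unlike the other chemokines that were high after injury, Cxcl13 was high on the array labelled left tPA day 1 replicate 2, whose index went against its label. By mean log2 intensity left gel day 4 (10.64) stood clear of the next group, right tPA day 1 (8.96), and sham day 4 (5.85) was last.

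Cxcl13 is shown with the sequence before its start, because its response to injury differed between the days. It is the 1 gene of the 5 that was matched in the RefSeq promoter table of GRCr8. These are the 250 bases before the start, chr14:13917921-13918170 on the minus strand, with a TATA box motif (TATAAA), found 33 bases before the start, in capitals.
Cxcl13 promoter: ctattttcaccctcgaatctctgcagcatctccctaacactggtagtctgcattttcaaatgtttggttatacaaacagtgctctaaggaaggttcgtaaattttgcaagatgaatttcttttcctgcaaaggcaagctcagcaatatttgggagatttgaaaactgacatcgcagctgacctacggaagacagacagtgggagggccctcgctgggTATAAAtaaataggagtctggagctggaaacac
The same letters occur in 8.1% of 33469 windows of this kind, read on the gene's strand. Motifs for NF-kB, for AP-1 (TGANTCA), for STAT proteins and for STAT6, searched on both strands, have no match in these letters. They occur in 3.5%, 6.3%, 7.7% and 6.3% of the windows.

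Ccl11 ran the other way. It was high in unoperated and sham-operated arteries and low after injury. Intact arteries ranged from 108.2 to 750.2 with a median of 328.0, and sham arteries of day 1 had 787.9, 1021.3, 1509.9 and 509.4. Sham arteries of day 4 ranged from 69.3 to 565.7 with a median of 298.0. The left gel arteries of day 1 were all under the floor, at 2.5, 6.1 and 6.4, and those of day 4 had 63.0, 78.0 and 147.9. The right gel arteries, which were not injured, were as low on day 1, at 10.4, 5.0 and 32.7, and had 291.4, 67.9 and 295.2 on day 4.

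Among tPA arteries Ccl11 scattered widely. The left ones had 7.0, 251.5 and 95.5 on day 1 and 293.0, 7.9 and 7.6 on day 4, and the highest left array of each day was the one whose index went against its label. The right ones had 92.8, 11.4 and 293.0 on day 1 and 40.7, 8.0 and 178.9 on day 4. Sham day 1 (mean log2 9.79), intact (8.17) and sham day 4 (7.83) were the top 3 groups and right gel day 1 (4.71) and left gel day 1 (4.54) the last. Neighbouring groups in this order overlapped.

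**Figure D1:**
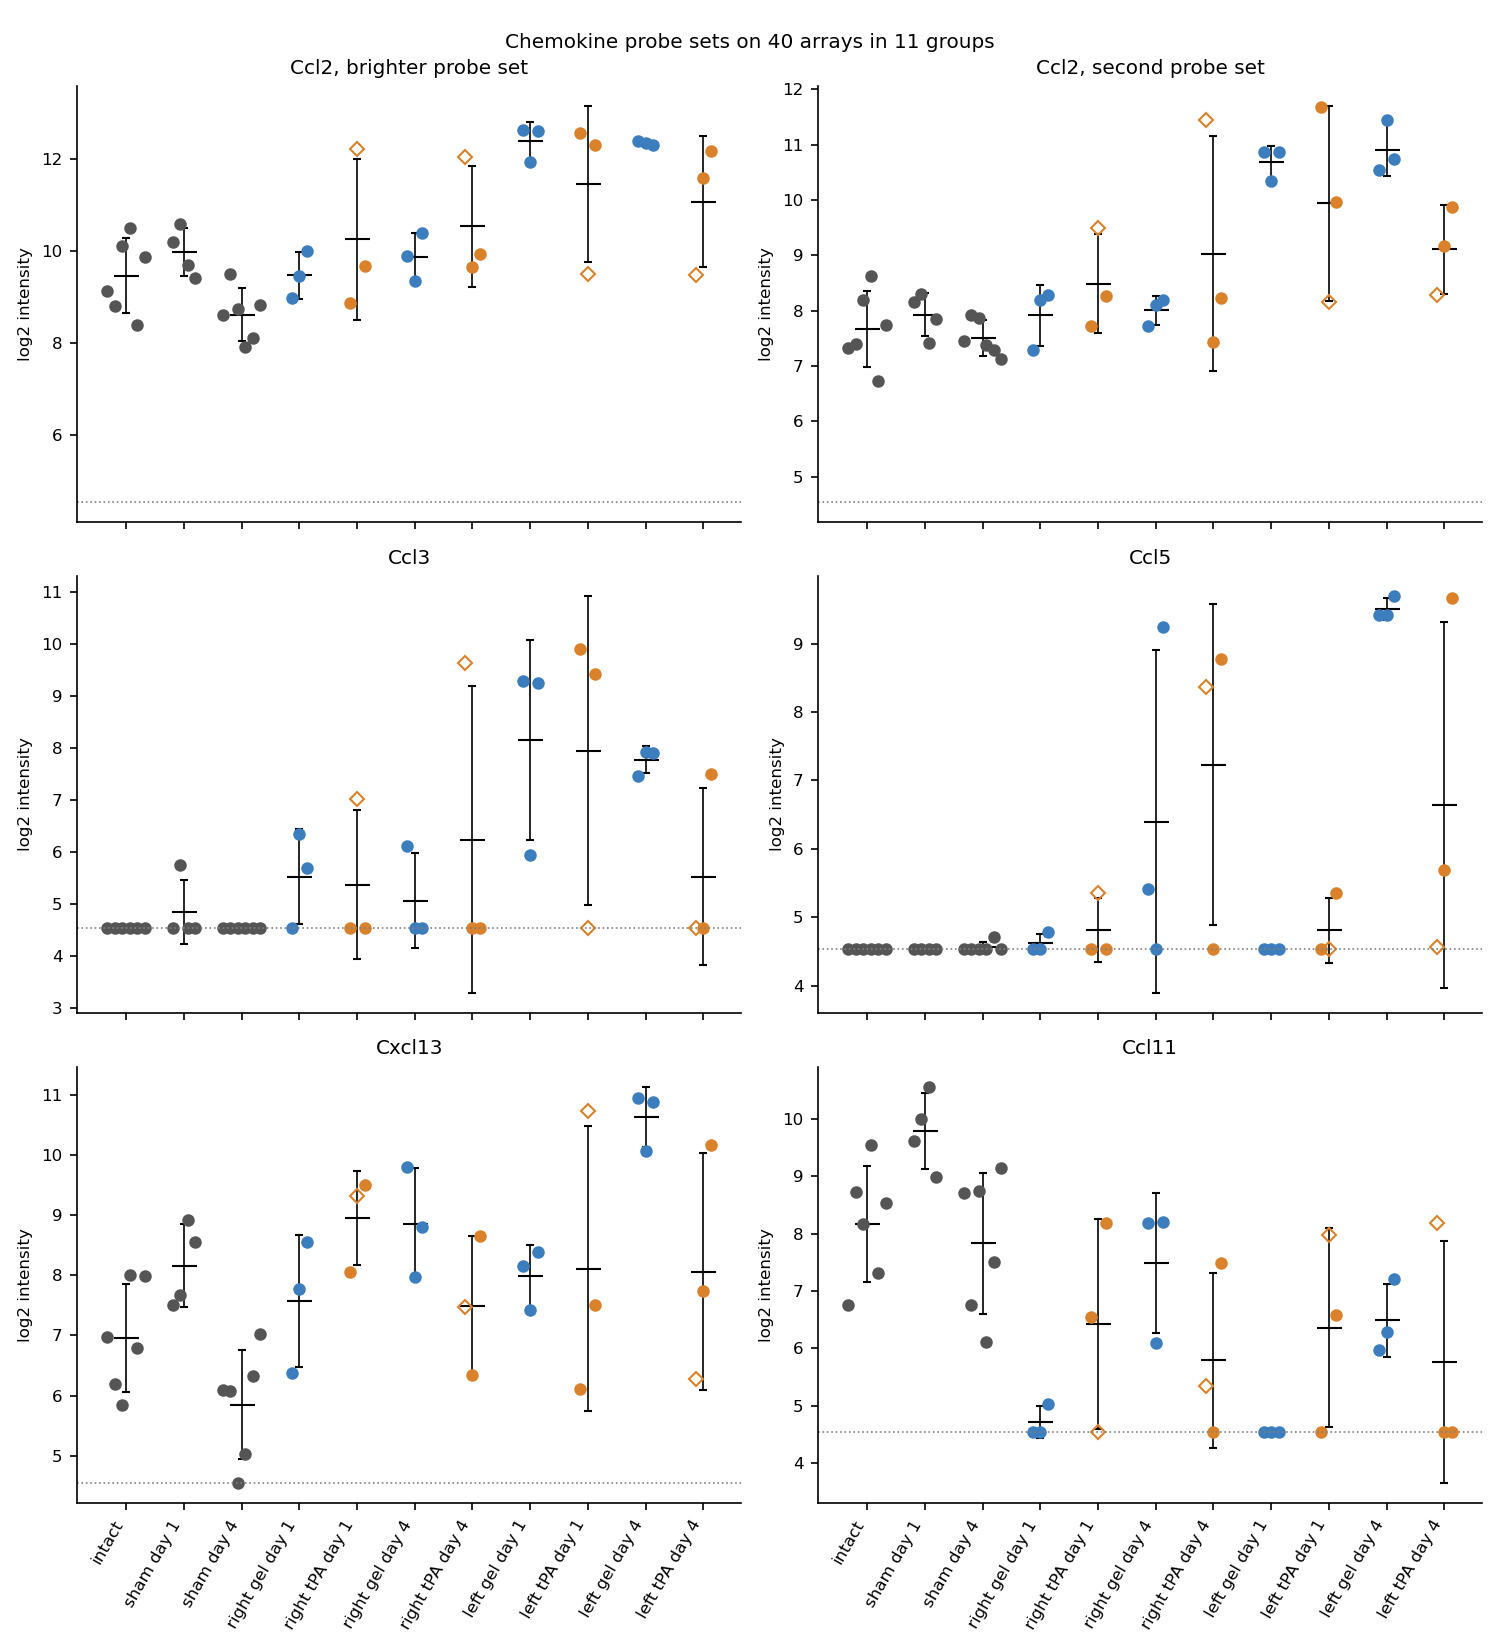
Log2 intensity of the 6 chemokine probe sets (vertical axes) on the 40 arrays in 11 groups; each point is an array of 3 pooled vessels, horizontal bars and whiskers are group means ± SD, the dotted line is the floor at 4.54, and open diamonds are the 4 tPA arrays whose index went against their label. Ccl2 and Ccl3 were high in left gel arteries on both days, Ccl5 and Cxcl13 were highest there on day 4, and Ccl11 was at the floor there on day 1.

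Differences were tested with limma across all probe sets, with 1 mean per group over the 40 arrays and Benjamini-Hochberg adjustment. The 2913 dimmest probe sets were left out, which leaves 5827. Ccl2, Ccl11 and Cxcl13 are among them and their counts below are of these 3 genes, with Ccl2 read by its brighter probe set. Ccl3 and Ccl5 fell under that limit, at the 32.3rd and 28.3rd percentile of mean level. They were tested in the same fit without it, over 8740 probe sets. An adjusted p under 0.05 was called. Folds are on the floored scale. In bulk arteries, more cells that make a chemokine and more RNA per cell cannot be told apart.

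On day 1 after injury with gel, Ccl2 rose and Ccl11 fell against sham arteries, and Cxcl13 did not pass the test. The test called 2 of the 3 genes, and 3.12% of all probe sets. Ccl2 was 5.35-fold higher (95% interval 2.01 to 14.2, adjusted p = 0.0474, 3 of 3 injured arrays above all 4 sham arrays). Its second probe set was 6.77-fold higher (2.72 to 16.8, adjusted p = 0.012). Ccl11 was at least 38.1-fold lower (adjusted p = 0.000937). Cxcl13 differed by -0.17 on the log2 scale (adjusted p = 0.966). In the fit without the limit on dim probe sets, which called 1.84% of probe sets, Ccl3 was 9.92-fold higher without passing (2.25 to 43.8, adjusted p = 0.107), and Ccl5 was at the floor in both groups.

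The call on Ccl2 was near the threshold. It was lost without any 1 of the 7 arrays of the 2 groups, with adjusted p-values from 0.063 (without sham replicate 2) to 0.165 (without left gel replicate 1) and differences of 2.23 to 2.65 on the log2 scale. With left gel replicates 1 and 3 averaged, the adjusted p was 0.162 for the brighter and 0.0594 for the second probe set. The second probe set lost its call without left gel replicate 1 (adjusted p = 0.0552) or replicate 3 (0.0577). The fall of Ccl11 was called under each of its 16 alternatives. Its size is a bound that moves with the floor, and with the floor at the 40th percentile the difference was -3.48 on the log2 scale.

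On day 4, gel-treated injured arteries had much more Ccl2 and Cxcl13 than sham arteries of that day, and in the wider fit more Ccl3 and Ccl5. The test called 2 of 3 genes, against 19.2% of all probe sets in this comparison. Ccl2 was 13.3-fold higher (5.37 to 33, adjusted p = 0.000132) and on its second probe set 10.5-fold higher (4.54 to 24.5, adjusted p = 0.000157). Cxcl13 was 27.7-fold higher (9.46 to 81.3, adjusted p = 6.03e-05). Ccl11 differed by -1.34 on the log2 scale, which did not pass (adjusted p = 0.289), and its ranges overlapped.

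The fit without the limit on dim probe sets called 13.1% of probe sets and 4 of the 5 genes. Ccl5 was 30.6-fold higher (9.84 to 95.4, adjusted p = 0.000135), with 5 of 6 sham arrays at the floor. Ccl3 was at least 9.35-fold higher, as all sham arrays were at the floor (adjusted p = 0.0238). The Ccl3 call was lost without left gel replicate 1, 2 or 3 (adjusted p = 0.0644, 0.0855 and 0.08), under the replicate block (0.0563) and with the floor at the 40th percentile, where the difference was 1.46 on the log2 scale (0.133). The sizes for Ccl3 and Ccl5 move with the floor, and at that higher floor Ccl5 differed by 3.2 on the log2 scale. The calls on Ccl2, Ccl5 and Cxcl13 held under each of their alternatives, with adjusted p-values up to 0.00163, 0.00187 and 0.00115. The ratio of the 3' to the 5' probe sets of a gene is a sign of RNA integrity. For beta-actin it was 7.38 to 8.09 on these 3 injured arrays and 11.8 to 23.7 on the sham arrays of day 4. For Gapdh it was 1.41 to 6.22 and 3.27 to 9.53, which overlap. The part of RNA integrity in these results was not tested.

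Whether the effect of injury differed between the days was tested directly, as the difference between gel and sham on day 4 less that on day 1. Cxcl13 passed, 1 of the 3 genes against 2.42% of probe sets, with a difference of 4.97 on the log2 scale (adjusted p = 0.00935). Ccl5 passed in the wider fit, where 1.33% of probe sets were called (4.94, adjusted p = 0.0228). Its call was lost without any 1 of the 6 left gel arrays, with adjusted p-values of 0.0516 to 0.0667, and was 0.0554 with left gel day 1 replicates 1 and 3 averaged. For Ccl2 the difference was 1.32 (adjusted p = 0.635, 95% interval -0.61 to 3.24), for Ccl3 -0.09 (adjusted p = 1) and for Ccl11 3.91 (adjusted p = 0.0803). Without the 4 tPA arrays the adjusted p for Ccl11 was 0.0162.

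Part of the Cxcl13 contrast lay in the sham arteries. From day 1 to day 4, Cxcl13 fell 4.99-fold in sham arteries (1.87 to 13.3, adjusted p = 0.0471), 1 of 3 genes called against 5.01% of probe sets. That call was lost without any 1 of the 4 sham arrays of day 1, and without any of replicates 1 to 5 of day 4, with adjusted p-values of 0.0646 to 0.173 (the highest without day 1 replicate 3). By limma all 3 genes had an unadjusted p under 0.05 between these sham groups. Ccl2 differed by -1.356 (adjusted p = 0.157) and Ccl11 by -1.965 (0.114) on the log2 scale. Without the 4 tPA arrays these adjusted p-values were 0.0188 and 0.0455. In left gel arteries Cxcl13 was 6.26-fold higher on day 4 than on day 1 without passing (adjusted p = 0.0969), although all 3 arrays of day 4 were above all 3 of day 1. Without the 4 tPA arrays its adjusted p was 0.0274. With all arrays none of the 3 genes was called in that comparison, against 3.21% of probe sets, and Ccl2 differed by -0.04 on the log2 scale (adjusted p = 0.985). By limma 2 of 3, Cxcl13 and Ccl11, had an unadjusted p under 0.05. Ccl5 was called in the wider fit (2.21% of probe sets) and was at least 31.2-fold higher on day 4 (adjusted p = 0.00285).

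**Figure D2:**
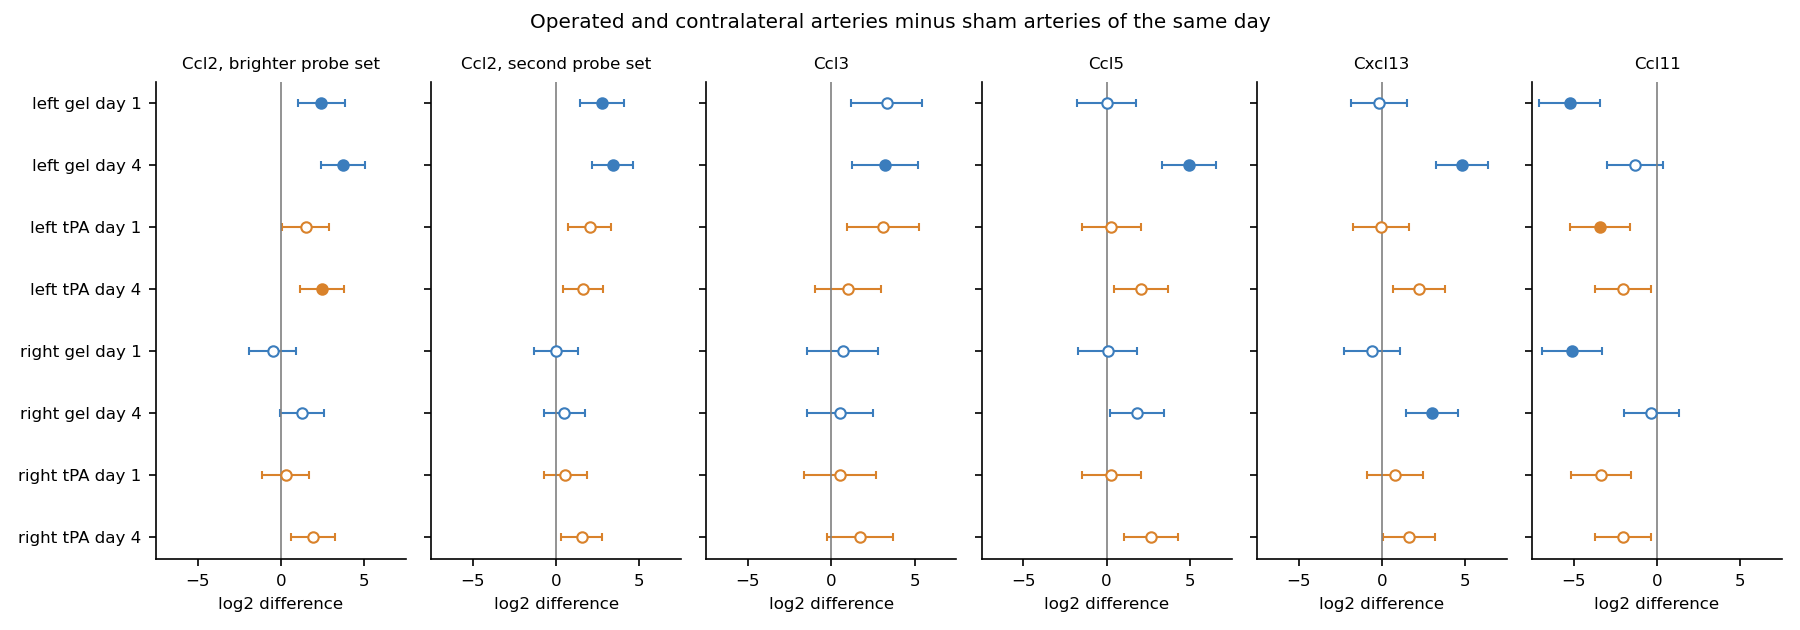
Log2 difference (horizontal axes) between each operated or contralateral group and sham arteries of the same day for the 6 chemokine probe sets; points are limma estimates, whiskers 95% intervals, filled points passed an adjusted p of 0.05, and Ccl3 and Ccl5 come from the fit without the limit on dim probe sets. Ccl2 was above sham in the left gel arteries on both days, Cxcl13 and Ccl5 on day 4, and Ccl11 lay below sham in left and right gel arteries on day 1.

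With tPA in the gel, injured arteries of day 1 had less Ccl11 than sham arteries, 10.8-fold (3.07 to 37.8, adjusted p = 0.0234). This was 1 of 3 genes, against 4.43% of probe sets. Ccl2 was 2.79-fold higher without passing (adjusted p = 0.206), and Ccl3 in the wider fit 8.59-fold higher (adjusted p = 0.103). Without the 4 arrays that went against their labels, Ccl2 differed by 2.46 on the log2 scale (adjusted p = 0.000496), its second probe set by 2.90 (3.19e-05), Ccl3 by 4.81 (2.7e-05) and Ccl11 by -4.23 (0.00062). The left array of day 1 among the 4 had the lowest Ccl2 (726.2) and Ccl3 (8.2) of its group and the highest Ccl11 (251.5). The larger differences thus follow from leaving it out. Without left tPA day 1 replicate 2 alone, the adjusted p was 0.0279 for Ccl2, 0.00591 for its second probe set and 0.00452 for Ccl3, with the same 3 differences from sham. Left tPA day 1 replicate 3, which stays in these fits, had 3' to 5' ratios of 2.8 for beta-actin and 0.243 for Gapdh. Sham arteries of day 1 had 16.3 to 21.1 and 7.53 to 10.3, and the part of this was not tested. The Ccl11 call was lost without sham replicate 2 (adjusted p = 0.0602) or 3 (0.0732) and without left tPA replicate 1 (0.143) or 3 (0.0864).

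On day 4 left tPA arteries had 5.51-fold more Ccl2 than sham arteries (2.22 to 13.6, adjusted p = 0.023), 1 of 3 genes against 5.87% of probe sets. The second probe set was 3.03-fold higher without passing (adjusted p = 0.101). Cxcl13 was 4.64-fold higher without passing (adjusted p = 0.0745). The Ccl2 call was lost without left tPA replicate 2 (adjusted p = 0.139) or 3 (0.266). Without the 4 arrays, Ccl2 differed by 3.26 on the log2 scale (adjusted p = 5.43e-06), Cxcl13 by 3.11 (0.00326), Ccl11 by -3.29 (0.00363) and Ccl5 in the wider fit by 3.11 (0.0181). Without left tPA day 4 replicate 1 alone, the adjusted p was 0.0436 for the second Ccl2 probe set (difference 2.01), 0.0113 for Cxcl13, 0.0099 for Ccl11 and 0.0193 for Ccl5.

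The direct comparison of tPA with plain gel in injured arteries called none of the 3 genes on either day, against 0.12% of probe sets on day 1 and 0.12% on day 4. By limma, 0 of 3 had an unadjusted p under 0.05 on day 1 and 1 of 3 on day 4, which was Cxcl13. On day 1 the tPA arteries had 1.92-fold less Ccl2 (95% interval of the log2 difference -2.45 to 0.57, adjusted p = 0.588), and without the 4 arrays the log2 difference was 0.04 (adjusted p = 0.98). On day 4 they had 2.42-fold less Ccl2 (adjusted p = 0.739), with no overlap between the groups. The second probe set, also with no overlap, was 3.48-fold lower (1.31 to 9.2, adjusted p = 0.423). Cxcl13 was 5.98-fold lower (1.73 to 20.7, adjusted p = 0.317) and Ccl5 7.29-fold lower (1.96 to 27.1, adjusted p = 0.328) with tPA on day 4, and neither passed.

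Without the 4 arrays the day 4 differences between tPA and gel came to -0.47 for Ccl2, -1.69 for Cxcl13 and -1.83 for Ccl5 on the log2 scale, with adjusted p-values of 0.902, 0.53 and 0.71. Leaving out 1 array turned one of these into a call: without left tPA day 4 replicate 3, the only one of the 3 with high Ccl5, Ccl5 differed by -4.37 (adjusted p = 0.0138). The change of the tPA effect between the days was called for none of the 3 genes, against 0.0858% of probe sets, and 1 of 3, Cxcl13, had an unadjusted p under 0.05 by limma. The value for Cxcl13 was -2.7 on the log2 scale (adjusted p = 0.365) with all arrays and -0.5 (0.896) without the 4.

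**Figure D3:**
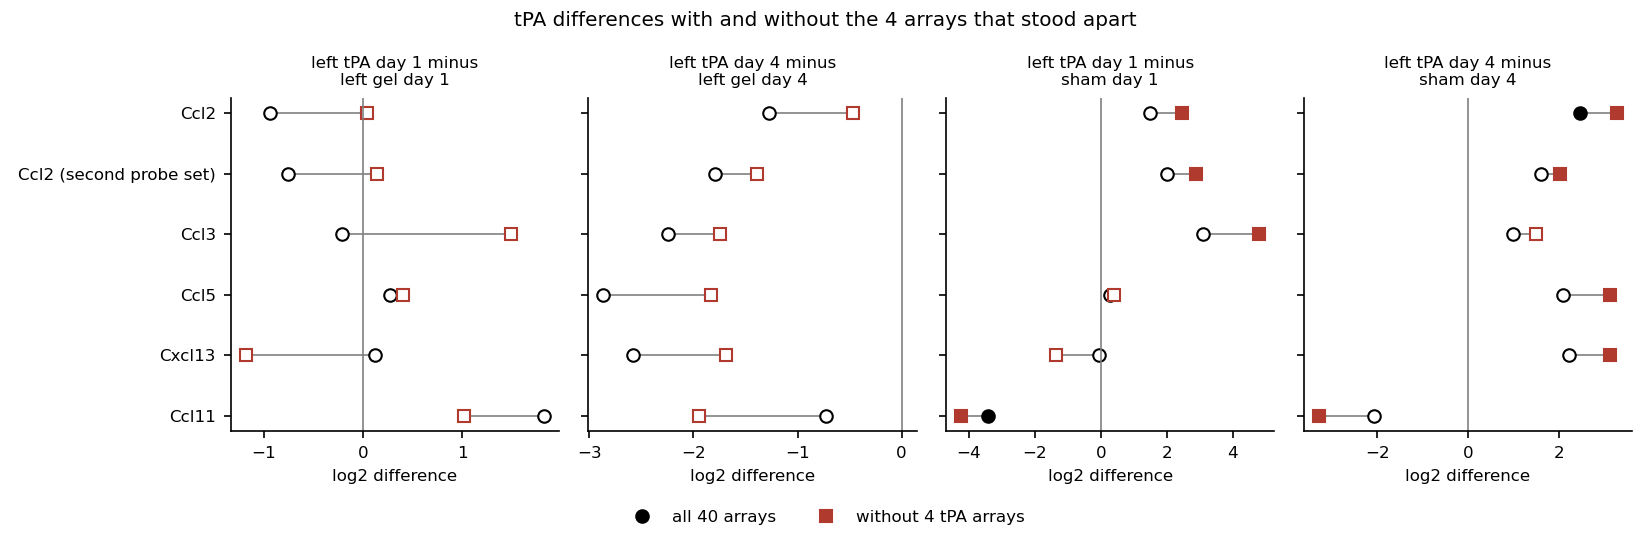
Log2 differences (horizontal axes) of left tPA arteries from left gel and from sham arteries for the 6 chemokine probe sets, with all 40 arrays (black circles) and without the 4 tPA arrays whose index went against their label (red squares); filled symbols passed an adjusted p of 0.05. Against sham arteries more symbols are filled without the 4 arrays, and against gel arteries none is filled either way.

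Injured and contralateral arteries of the same animals' groups were compared next. In gel-treated rats on day 4, Ccl2 was 5.58-fold higher on the injured side (1.96 to 15.9, adjusted p = 0.0455) and 7.45-fold higher on its second probe set (adjusted p = 0.0111). This was 1 of 3 genes against 5.1% of probe sets. The call on the brighter probe set was lost without any 1 of the 6 arrays (adjusted p of 0.0917 to 0.165), and that on the second without left gel replicate 2 (0.058). In the wider fit, which called 3.81% of probe sets, Ccl5 was 8.61-fold higher on the injured side without passing (adjusted p = 0.0541). It passed without right gel replicate 3, the right artery with 606.1 (difference 4.53 on the log2 scale, adjusted p = 0.00606). Without the 4 tPA arrays Ccl5 passed with an unchanged difference (adjusted p = 0.0271), as did Ccl3 (difference 2.702, adjusted p = 0.00843, against 0.212 with all arrays).

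On day 1 none of the 3 genes was called between left and right gel arteries, against 0.549% of probe sets, although Ccl2 was 7.55-fold higher on the left with no overlap (2.65 to 21.5, adjusted p = 0.0504). Ccl2 was the 1 gene with an unadjusted p under 0.05 there by limma. Without the 4 tPA arrays its adjusted p was 0.000175 with an unchanged difference. Ccl3 in the wider fit then passed too (difference 2.63, adjusted p = 0.0191, against 0.21 with all arrays). Ccl11 differed by -0.16 on the log2 scale between these sides (adjusted p = 0.953), both being at or near the floor. Between left and right tPA arteries none was called on day 1 (0.0172% of probe sets) or day 4 (0.0343%), and 0 of 3 had an unadjusted p under 0.05 by limma on either day. Without the 4 arrays, Ccl2 was higher on the left by 3.16 on day 1 (adjusted p = 0.000317) and by 2.09 on day 4 (0.0203) on the log2 scale. Without left tPA day 1 replicate 2 alone, Ccl3 was higher on the left by 4.29 on day 1 (adjusted p = 0.0349).

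The uninjured right arteries of operated rats also differed from sham arteries. On day 1 after gel, Ccl11 was 34-fold lower there (9.69 to 119, adjusted p = 0.00258), with 2 of 3 right arteries at the floor. This was 1 of 3 genes against 0.927% of probe sets, and it was called under each of its 16 alternatives, with a difference of -3.48 on the log2 scale when the floor was at the 40th percentile. On day 4 Cxcl13 was 8.05-fold higher (2.75 to 23.6, adjusted p = 0.0107), 1 of 3 genes against 8.82% of probe sets. That call was lost without right gel replicate 1 (adjusted p = 0.0847) or 3 (0.0567). Without the 4 tPA arrays Ccl2 was also called there (difference 1.255 on the log2 scale, adjusted p = 0.0281, against 0.239 with all arrays). On these same right gel arrays of day 4, genes of noradrenaline synthesis in sympathetic nerves were higher than in sham arteries, Dbh by 6.06 (adjusted p = 4.13e-05) and Th by 3.05 (7.74e-05) on the log2 scale, and their part in the Cxcl13 result was not tested.

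In right tPA arteries no gene of the 3 was called against sham on day 1 (0.172% of probe sets) or day 4 (0.91%), with 1 of 3 and 3 of 3 at an unadjusted p under 0.05 by limma. Ccl11 was 10.3-fold lower than sham on day 1, with no overlap (adjusted p = 0.115). Without the 4 arrays the difference was -2.43 on the log2 scale (adjusted p = 0.186), and no gene of the 3 was called on either day. On day 4, leaving out right tPA replicate 2, whose index followed its label, gave a call for Ccl5 in the wider fit (4.00, adjusted p = 0.0156) and the second Ccl2 probe set (2.33, 0.0494). These differences were 2.09 (adjusted p = 0.467) and 0.32 (0.838) without the 4 arrays. Between right tPA and right gel arteries none was called on day 1 (0% of probe sets) or day 4 (1.63%), and 0 of 3 had an unadjusted p under 0.05 by limma on either day. None of the 3 was called there without the 4 arrays either. Right gel arteries of day 4 and day 1 did not differ by the test for any of the 3 genes (3.57% of probe sets), 1 of 3 having an unadjusted p under 0.05 by limma. That gene was Ccl11, 6.9-fold higher on day 4 with no overlap (adjusted p = 0.104, and 0.0284 without the 4 arrays). The same count was 0 of 3 for left tPA arteries of day 4 against day 1 (1.15% of probe sets, none called). There, without left tPA day 1 replicate 2, Ccl3 differed by -4.13 on the log2 scale in the wider fit (adjusted p = 0.0359), and without the 4 arrays by -3.63 (0.00746).

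The sham operation itself gave no call on any of the 3 genes against intact arteries on day 1 (0.944% of probe sets) or day 4 (0.378%), with 1 of 3 and 0 of 3 at an unadjusted p under 0.05 by limma. Ccl11 was 3.07-fold higher in sham arteries of day 1 than in intact ones (1.06 to 8.88, adjusted p = 0.43). Sham arteries of day 1 are the reference for the falls of Ccl11 above. Against the range of intact arteries (108.2 to 750.2), all 6 left and right gel arteries of day 1 were also lower. Over the 24 comparisons, 9 had at least 1 of the 3 genes called and 15 had none.

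Other chemokines were read from a list of 25 entries, 11 of them on the array, in which Cxcl6 stands more than once. The 7 genes tested gave 1 call on day 1 and 3 on day 4 in injured gel arteries against sham, all higher. Of all probe sets, 3.12% and 19.2% were called there. Cxcl2, a neutrophil chemokine, rose by 5.51 (adjusted p = 0.00493) on day 1 and by 3.57 (0.0115) on day 4 on the log2 scale. Pf4, a platelet chemokine, rose by 2.03 (0.000597) and Ccl4, a chemokine of macrophages and T cells, by 1.51 (0.00738) on day 4. The median difference of the 7 genes was 0.69 on day 1 and 1.51 on day 4, beside -0.01 and 0.02 over all probe sets tested. In tPA arteries against sham, Cxcl2 rose on day 1 (3.76, adjusted p = 0.0425) and Pf4 on day 4 (1.61, 0.022). Pf4 also rose in right tPA arteries of day 4 (2.02, 0.0119).

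In the other comparisons with a chemokine call, few genes of this list moved. Cxcl6, a granulocyte chemokine, fell in right gel arteries of day 4 against sham (-1.6, adjusted p = 0.0392) and rose in sham arteries from day 1 to day 4 (1.89, 0.0161). Of 20 chemokine receptors, 11 are on the array and 7 were tested. None passed in injured gel arteries against sham on either day, with medians of -0.17 and -0.06. Ccr1, a receptor for Ccl3 and Ccl5, rose in left tPA arteries of day 1 (1.9, adjusted p = 0.0122). The receptors Ccr2, Ccr3 and Cxcr5 of Ccl2, Ccl11 and Cxcl13 were too dim to be tested.

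Of a list of 25 cytokines and cytokine receptors, not all of which induce chemokines, 19 are on the array and 12 were tested. Il1b, an inducer of Ccl2 in many cells, rose by 4.08 on day 1 (adjusted p = 0.00569) and by 4.62 on day 4 (0.000128) in injured gel arteries against sham. It rose by 3.63 in left tPA arteries of day 1 (0.0144) and by 3.07 in left against right gel arteries of day 4 (0.0431). Il18, another cytokine of the interleukin-1 family, rose by 4.46 in left gel (2.32e-05), 3.18 in right gel (0.00142) and 2.67 in left tPA arteries (0.0169) of day 4 against sham. In injured gel arteries against sham, 1 of the 12 was called on day 1 and 2 on day 4, beside 3.12% and 19.2% of all probe sets. The median of the 12 there was 0.13 on day 1 and 0.28 on day 4. Of 14 tested NF-kB, STAT and AP-1 factors from a list of 25, which carry such signals to chemokine genes, none passed on day 1 and only Fos did on day 4, with a difference of -0.94 (adjusted p = 0.0227), with medians of -0.2 and 0.02.

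Markers of the cells that carry or answer these chemokines moved with them to differing degrees. The summed intensity of 9 macrophage and monocyte markers was 13267 to 14941 in left gel arteries of day 1 and 16309 to 19836 on day 4, against 7549 to 8546 and 2931 to 5648 in sham arteries. In the test against sham, 1 of 8 such markers rose on day 1 and 6 of 8 on day 4, among them Lgals3 (2.74, adjusted p = 4.3e-05) and Aif1 (3.83, 0.000207). The shares of all probe sets called were 3.12% and 19.2%. Not every array with a high sum had high Ccl2. Right tPA arteries of day 1 had sums of 13240 and 14061 on replicates 1 and 3, with Ccl2 at 469.4 and 815.6. Right gel arteries of day 4 had sums of 8829 to 14408, with Ccl2 at 650.4 to 1343.6. The part of these cells in the rise of Ccl2, Ccl3 and Ccl5 was not tested. T and NK cells are attracted by Ccl5 and release it. Of their markers, 3 of 8 tested rose in left gel arteries of day 4 against sham, where 19.2% of all probe sets were called. Cd8a rose by 3.91 (adjusted p = 0.000715), Cd3g by 2.78 (0.0018) and Cd247 by 1.02 (0.0316), and none rose on day 1. In sham arteries of day 1, Cd3g and Cd247 were above intact arteries, by 2.27 (adjusted p = 0.0495) and 1.22 (0.0468). Between sham arteries of day 4 and day 1 Cd3g differed by -2.63 (0.0091). The summed intensity of 12 such markers was 2775, 1500 and 2362 in right tPA arteries of day 1, with Ccl5 at 11.7, 41.1 and 20.0. It was 1908 to 2725 in left gel arteries of day 4.

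Neutrophil markers were split within some groups as Ccl3 was. Their summed intensity over 8 genes was 6414, 636 and 6434 on left gel replicates 1, 2 and 3 of day 1, and 2721, 462 and 7815 on those of left tPA day 1. It was 8432 on right tPA day 4 replicate 1, the right artery with the highest Ccl3, and 262 to 418 in sham arteries of day 1. Other groups did not show the same order. Right gel arteries of day 1, with Ccl3 at 7.4, 81.6 and 51.6, had sums of 477, 511 and 1873. The last of these is the array with few probe sets at the floor. S100a8 rose by 3.93 (adjusted p = 0.0459) and Defa5 by 3.06 (0.0193) in left gel arteries of day 1. Skeletal muscle markers were also high there, with sums over 12 genes of 24363, 46134 and 24092 against 2975 to 4272 in sham arteries of day 1. Of these markers 6 of 11 tested rose, beside 3.12% of all probe sets called. The part of neutrophils and of skeletal muscle in the day 1 results was not tested. In right gel arteries of day 1 the muscle sums were 2916 to 4192.

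For eosinophils, the targets of Ccl11, 3 of 9 markers are on the array and 1 was tested, Alox15, which did not pass in injured gel arteries on either day. Prg2, a granule protein of eosinophils, read 16.7 to 220.9 in left gel arteries of day 1 against 11.6 to 43.6 in sham arteries. For B cells, the targets of Cxcl13, 2 of 15 markers are on the array, and neither was bright enough to be tested. Cd79b, a chain of the B-cell receptor complex, read 67.2 to 158.3 in left gel arteries of day 4 and 28.1 to 113.5 in sham arteries. Cxcr5 read 11.3 to 41.6 and 24.1 to 43.6, at or near the floor in these groups. The data thus hold little on whether these cells were present.

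Adipocyte markers were high in some of the groups with high Cxcl13. Their sums over 8 genes were 9875 to 13707 in left gel arteries of day 4 and 8251 to 14914 in right gel arteries of day 4, against 4047 to 6529 in sham arteries of that day. They were 10778 on the array labelled left tPA day 1 replicate 2, where Cxcl13 was at 1702.2, but 11921 on replicate 3, where it was at 181.3. On left tPA day 4 replicate 3, where Cxcl13 was at 1150.2, the sum was 6476, within the range of sham arteries. In left gel arteries of day 4, 2 of 6 tested markers rose (Lpl by 3.52, adjusted p = 0.00116, and Cfd by 2.41, 4.3e-05) and Slc2a4 fell by 3.56 (2.8e-05). The share of all probe sets called there was 19.2%. In right gel arteries of day 4, Fabp4, Lpl and Cfd rose by 3.56, 3.17 and 2.25 (adjusted p = 0.0442, 0.00746 and 0.000131). Their part in the Cxcl13 result was not tested.

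**Figure D4:**
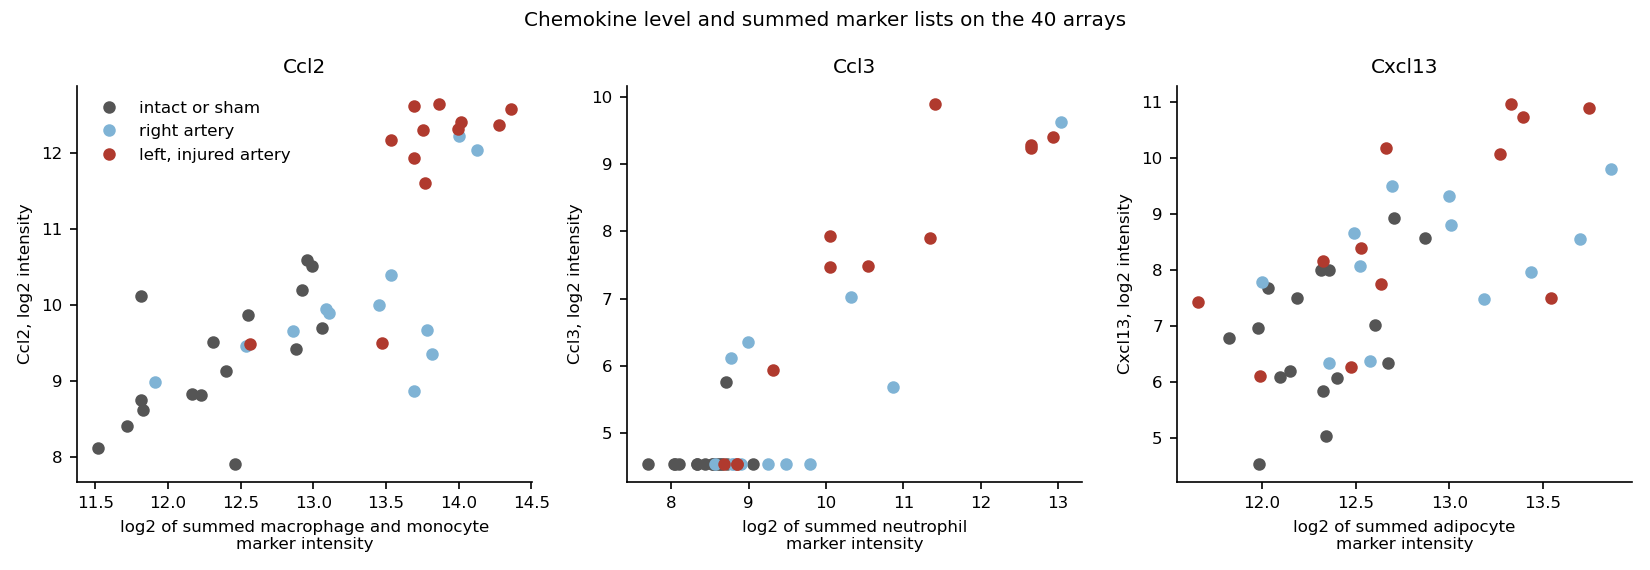
Log2 intensity of Ccl2, Ccl3 and Cxcl13 (vertical axes) against the log2 of the summed intensity of macrophage and monocyte, neutrophil and adipocyte markers (horizontal axes) on the 40 arrays; each point is an array, coloured grey for intact or sham, blue for right and red for left injured arteries, and the 3 pairings were chosen after the values were seen. Injured arteries with high Ccl2 had high macrophage sums, but some right arteries with low Ccl2 had high sums too. Injured arteries with the highest Ccl3 had high neutrophil sums, and the Cxcl13 points scatter more.

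Each chemokine was last set beside the 3546 genes tested, by Pearson correlation of log2 intensity over the 40 arrays. Genes under the limit on dim probe sets, Ccl3 and Ccl5 among them, could not appear as closest genes. These values are descriptions: all genes share the same arrays, groups and scaling. Closest to Ccl2 were Cd53 (r = 0.9), Ptpro (0.9), Ptprc (0.9), the common antigen of white blood cells, and Cd44 (0.89), and most opposite were P2rx1 (-0.91) and Aopep (-0.9). Closest to Ccl3 were Cxcl2 (0.95), Il1b (0.92), the gelatinase Mmp9 (0.88) and Cd14 (0.84), and most opposite Omd (-0.87) and Aldh3a1 (-0.85). Closest to Ccl5 were Pafah1b3 (0.78), Tnn (0.77), Slc41a2 (0.74) and Prkcb (0.73), and most opposite Snrnp70 (-0.77) and Jph2 (-0.72).

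Closest to Cxcl13 were Pdgfra (0.82), a receptor of fibroblasts, Clec10a (0.8), a lectin of macrophages and dendritic cells, Lpl (0.8), the lipase of fat and muscle capillaries, and Agtr1a (0.8), an angiotensin II receptor. Most opposite to it were Map1lc3a (-0.67) and Pitpnb (-0.66). Closest to Ccl11 were Rnase1 (0.74), Cyp2c11 (0.67), Mmrn1 (0.66) and Spop (0.65), and most opposite Esm1 (-0.67) and Mcm7 (-0.66), a helicase subunit of DNA replication. No gene appears in the lists of closest genes of 2 chemokines.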

How the data were processed

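Per the labels, RNA of carotid arteries was hybridised to Affymetrix rat arrays. The authors deposited a linear intensity for every probe set of an array, and how it was summarised from the probes is not given in the sources used here. Of 8799 probe sets, 59 controls were left out. With GEO's platform annotation, 7006 of the others have 1 gene symbol, 308 several and 1426 none. Intensities were floored at 23.3 (20th percentile of the table), taken to log2 (floor 4.54), and the 2913 with the lowest mean were dropped, which leaves 5827 probe sets of 3546 genes. limma 3.58.1 in R 4.3.3 fitted 11 group means over 40 arrays (lmFit, contrasts, eBayes with 33.1 degrees of freedom; 24 comparisons), with Benjamini-Hochberg adjustment over all probe sets and a threshold of 0.05. The number of arrays limits the precision, and p-values measure the spread between pools. Alternatives were other scalings, filters and floors, fewer groups or arrays, the replicate block, and probe set means. The members and lists were chosen with earlier results of these data known. The text names the members, up to 4 called genes per pathway list, the brightest or called markers and the closest genes by correlation. Replicate numbers are shared by all groups. Deviations of same-numbered pools from their group means correlated above 0.1 in every pair only for right gel and sham arteries of day 1. Those correlations were 0.12 to 0.28, and no label links these groups. Elsewhere the pairs of a comparison varied, as in left against right gel arteries of day 1 (-0.3 to 0.34).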

Additional observations from a re-analysis of the deposited data

Results flagged for a closer look

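On 1 of 4 sham arrays of day 1, replicate 2, Ccl3 stood at a log2 intensity of 5.76 while the other 3 were at the floor of 4.54. On 1 of 6 sham arrays of day 4, replicate 5, Ccl5 stood at 4.71 while the other 5 were at the floor. The gap between such an array and the others is measured from arrays tied at the floor, so any single array above the floor is singled out, and the usual rate of about 1 in 20 groups by chance does not apply to these 2. The effect of injury with gel differed between day 4 and day 1 for Cxcl13, by 4.965 on the log2 scale (adjusted p = 0.00935), and for Ccl5 in the fit without the limit on dim probe sets, by 4.937 (adjusted p = 0.0228).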

How the results depend on the processing

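Of 320 values recomputed for called differences, 259 kept their call, 61 lost it and none changed sign. Of 2062 recomputed for uncalled ones, 56 passed and 109 changed sign. Named by comparison, the count of chemokine genes called, of 3 genes by the main setting, moved as follows. Left gel against sham, day 1: 2 by the main setting and 1 under quantile normalization, median scaling, no filter, the 50% filter, the replicate block and averaged left gel replicates 1 and 3, and 3 with only the groups compared. With each array left out in turn it was 1 throughout. Day 4: 2, and 4 of 5 with no filter. Left tPA against sham, day 1: 1, but 0 under the 50% filter and with only the groups compared, 2 with the floor at the 40th percentile and without the 4 tPA arrays, and 0 to 2 with each array left out. Day 4: 1, but 0 under the replicate block and with only the groups compared, 3 without the 4 arrays, and 0 to 3 with each array left out. Left against right gel, day 1: 0, but 1 under median scaling, the 50% filter, the higher floor, without the 4 arrays, with only the groups compared and with probe set means. Day 4: 1, but 0 under median scaling, no filter, the replicate block, averaged replicates and each array left out, and 2 with the higher floor and only the groups compared. Left against right tPA: 0 on each day, and 1 without the 4 arrays. Right gel against sham: 1 on each day, but 0 on day 1 under the 50% filter, and on day 4 2 without the 4 arrays and 0 to 1 with each array left out. Right tPA against sham, day 1: 0, and 1 with the higher floor. Sham day 4 against day 1: 1, but 0 with no filter and averaged replicates, 3 without the 4 arrays, 2 with only the groups compared, and 0 to 1 with each array left out. Day 4 against day 1: 0, but 1 in left gel with no filter, the higher floor and without the 4 arrays and 2 with only the groups compared, and 1 in right gel without the 4 arrays and with only the groups compared. Injury effect between days: 1, and 2 with no filter, the higher floor, without the 4 arrays and with only the groups compared. The 50% filter removes Ccl11, with no filter and with the higher floor Ccl3 and Ccl5 are counted too, and with only the groups compared the genes tested differ; the cause of the other moves was not tested. Under the replicate block, 14 of 18 called differences kept their call, and the numbers do not mark shared animals in the labels.

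Limits: groups of 3 pools, 1 platform, a floor that hides low levels of Ccl3, Ccl5 and Ccl11, gel confounded with injury against sham, and 4 tPA arrays that went against their labels.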
